A study of Mus musculus with 5 samples.

Results

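The Clec genes are 31 of the 32285 genes in the deposited gene list, taken as every symbol in that list made of Clec, a number and a letter suffix. They were followed through all 5 single-cell libraries of immune cells from flank tumours of Lewis lung carcinoma (LLC), a mouse lung carcinoma line. In the Scramble group (3 libraries) the injected LLC cells were the Scramble control, and in the JAG2KO group (2 libraries) they carried an sgRNA against Jag2, which encodes a Notch ligand, so the tumour cells and not the immune cells described here were edited. Per the labels, tumours were taken at endpoint and cells that stained for the leukocyte antigen CD45 and not for the dead-cell dye PI were sorted for droplet sequencing of transcript 3′ ends. The labels do not say whether a library is 1 animal or several, nor give the age, sex or strain of the mice or say whether the edited line is 1 clone. Clec7a, which encodes dectin-1, was not analysed here.

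C-type lectin domain proteins bind sugars, lipids, crystals or other proteins, and many sit on myeloid cells as receptors of microbes and of damaged cells. One group (Mincle from Clec4e, MCL from Clec4d, dectin-2 from Clec4n) signals through the Fc receptor gamma chain, Syk and Card9, and another (DCIR from Clec4a2, MICL from Clec12a) carries an inhibitory motif that recruits phosphatases. Others mark dendritic cells: the product of Clec9a binds actin of dead cells and serves cross-presentation, and that of Clec10a binds galactose-type sugars.

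Of 53048 kept cells, each library gave 7563 to 17791, from 10262 to 21854 barcodes where 10000 encapsulated cells are stated, with 84788907 to 111680641 UMIs (unique molecule counts) in its barcodes. JAG2KO 2 stood apart: its kept cells had a median of 2452 UMIs against 7672.5 to 8616 in the other 4 libraries, and 20.3% of them met no marker gate against 8.79% to 9.26%. The library pairs shared 0.198% to 0.495% of the smaller library's barcodes. Cells were sorted into classes by how many genes of a marker list they expressed, with no Clec gene in any list, and UMIs were summed per class and library and divided by all UMIs of that class and library, on the usual CPM scale. Macrophage RNA in other classes was gauged by the complement genes C1qa, C1qb and C1qc, which macrophages make. Their summed level in CD4 T cells was 6.92% to 37.7% of the macrophage level of the same library, and in neutrophils 26.8% to 61.8%. It was uneven between classes of 1 library: in Scramble 1 it stood at 497 CPM in NK cells and 4166 CPM in CD4 T cells. Whether it came from free RNA, doublets or misgated cells was not tested. A Clec level in another class at or below the C1q percentage of its own macrophage level is read here as background. Cells that met the non-classical monocyte gate had a C1q level of 9011, 10103 and 7498 CPM in the Scramble libraries and are not described. In the fibroblast or tumour cell gate Jag2 itself stood at 3.11, 1.83 and 1.17 CPM in the Scramble libraries, with 0.439 and 0.451 CPM in JAG2KO, from 18, 11 and 5 UMIs and from 3 and 2 UMIs. Macrophages of the same libraries, which were not edited, had Jag2 at 4.02, 3.28 and 4.65 CPM in Scramble, 3.68 and 2.13 CPM in JAG2KO. The C1q genes stood in that gate at 6455, 3812 and 793 CPM in Scramble, 428 and 1952 CPM in JAG2KO, and their part in the Jag2 values was not tested. On these few counts, and since a 3′ count does not read the guide's target site, Jag2 does not check the edit here.

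Myeloid classes held the highest mean level of most members that reached 10 CPM. No UMI was found in any kept cell for 4 members (Clec4f, Clec2h, Clec18a and Clec3a), 8 had 5 to 68 UMIs in all (Clec2f, Clec4b2, Clec12b, Clec2e, Clec14a, Clec4g, Clec4a4 and Clec2l), and 19 had more than 100. By mean level, 15 members reached 10 CPM in at least 1 of the 10 classes that had 20 or more cells in every library, and Clec14a reached it in endothelial cells. The highest of the 10 classes was the neutrophils for 4 of the 15 (Clec4e, Clec4d, Clec4n and Clec5a), the monocytes for 3 (Clec4a1, Clec4a2 and Clec4a3), cDC1 for 3 (Clec9a, Clec1b and Clec12a) and cDC2 for 2 (Clec10a and Clec4b1). Clec2d was highest in migratory dendritic cells, Clec2i in NK cells and Clec1a in the fibroblast or tumour cell gate.

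**Figure D1:**
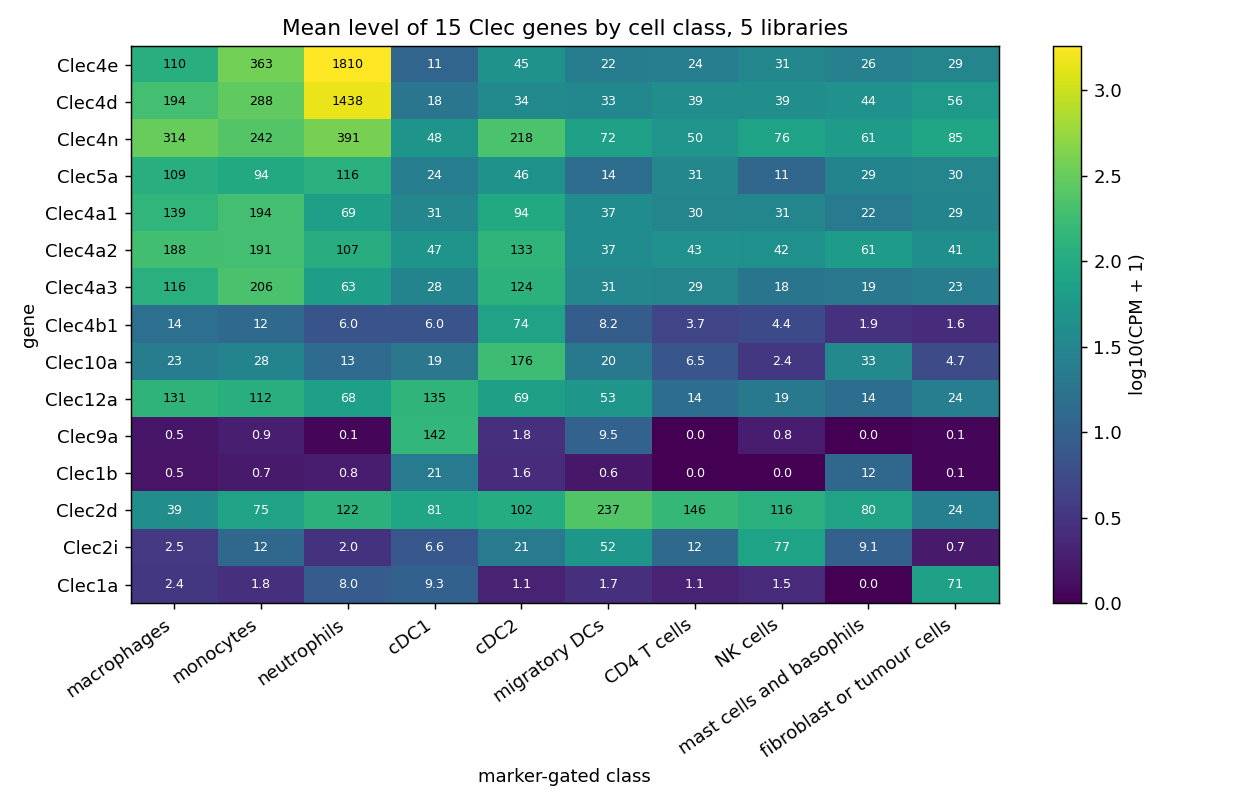
Mean level of 15 Clec genes (rows) in 10 marker-gated classes (columns) over 5 libraries; colour is log10(CPM + 1) and the printed figures are CPM. Clec4e and Clec4d peak in neutrophils, Clec9a in cDC1 and Clec10a and Clec4b1 in cDC2, and Clec1a in the fibroblast or tumour cell gate.

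A row of 9 Clec4 genes lies within 368 kb at chr6:122921848-123289870 (GRCm38), in the order Clec4a1, Clec4a3, Clec4a4, Clec4b1, Clec4a2, Clec4b2, Clec4n, Clec4d and Clec4e, with Clec4e on the minus strand and the others on the plus strand. Transcripts of Clec4b1 and Clec4a2 share exact 31-base stretches (18.3% of those of Clec4b1), as do those of Clec4a4 and Clec4a2 (19.4% of those of Clec4a4), so reads from these stretches cannot be assigned to 1 gene and the levels of Clec4a4, Clec4b1 and Clec4a2 are uncertain to that extent. Clec4d, Clec4e and Clec4a1 share none with another member.

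Clec4e and Clec4d are neighbours 6.52 kb apart that encode partner receptors of mycobacterial glycolipids, and they shared a pattern: neutrophils high, monocytes next, macrophages below. Their promoters are shown because these neighbours share this order of classes. Each run is the 250 bases before the RefSeq transcription start (GRCm38.p6, read 5′ to 3′ on the gene's strand), at chr6:123261857-123262106 on the plus strand for Clec4d and chr6:123289872-123290121 on the minus strand for Clec4e, with capitals where a C/EBP motif (TTNNGNAA, either strand) or a PU.1 motif (GAGGAAG, either strand) was found.
Clec4d: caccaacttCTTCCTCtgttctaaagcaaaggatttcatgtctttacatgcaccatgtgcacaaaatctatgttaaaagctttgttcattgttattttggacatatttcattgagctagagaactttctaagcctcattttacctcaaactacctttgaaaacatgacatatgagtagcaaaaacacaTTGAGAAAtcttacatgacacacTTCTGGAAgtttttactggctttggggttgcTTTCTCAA
Clec4e: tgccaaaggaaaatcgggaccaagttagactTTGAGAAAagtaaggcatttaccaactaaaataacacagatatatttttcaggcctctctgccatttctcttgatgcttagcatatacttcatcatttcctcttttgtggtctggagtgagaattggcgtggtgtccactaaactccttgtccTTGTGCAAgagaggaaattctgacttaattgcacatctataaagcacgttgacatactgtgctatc
The Clec4d run held 3 matches of the C/EBP letters and 1 of the PU.1 letters, and the Clec4e run 2 and 0. The C/EBP letters occurred in 36.8% and the PU.1 letters in 10.6% of 32851 promoter runs of the same length, and in 13 and 6 of the 24 Clec genes with a run; the matches are a description of letters.

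In neutrophils Clec4e stood at 2496, 1822 and 1969 CPM in the Scramble libraries, with 1774 and 988 CPM in JAG2KO. Macrophages had 132, 113 and 111 CPM in Scramble, 118 and 75.5 CPM in JAG2KO, so the lowest neutrophil value was above the highest macrophage value. Monocytes lay between, at 448, 323 and 389 CPM in Scramble, with 343 and 314 CPM in JAG2KO. With the library as a block, Clec4e differed by a log2 fold change of 4.49 ± 0.12 (SE) between neutrophils and macrophages and 1.90 ± 0.07 between monocytes and macrophages (edgeR adjusted p = 1.04e-19 and 1.29e-08). Clec4d repeated the order: neutrophils held 1563, 1492 and 1661 CPM in Scramble, with 1374 and 1099 CPM in JAG2KO, and macrophages 211, 199 and 185 CPM in Scramble, 216 and 160.1 CPM in JAG2KO. The neutrophil libraries were above every monocyte and macrophage library (3.37 ± 0.11 on the log2 scale against macrophages, edgeR adjusted p = 4.93e-18). In CD4 T cells, which should lack Clec4e, it was at 34.1, 28.2 and 15.9 CPM in Scramble, 18.8 and 22.1 CPM in JAG2KO, which is 14.3% to 29.3% of the macrophage level and above the C1q percentage in 3 of 5 libraries only. In NK cells Clec4e was above the C1q percentage in all 5 libraries, at 10.3% to 70.3% of the macrophage level. That percentage follows macrophage RNA only, and Clec4e was highest in neutrophils. The neutrophil genes S100a8 and S100a9 together stood in NK cells at 132, 148 and 135 CPM in Scramble, 25.5 and 68.0 CPM in JAG2KO. The part of free neutrophil RNA in the NK cell level was not tested.

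The share of cells with at least 1 Clec4e UMI told the same order as the levels. In neutrophils 73.6% to 90.4% of cells per library had one, in monocytes 52.4% to 68.7% and in macrophages 19.0% to 45.8%, against 4.6% to 10.4% of CD4 T cells. Cells with at least 1000 UMIs were also thinned to 1000 UMIs, and shallower cells were left out. This left out 68, 127 and 128 neutrophils in Scramble, 17 and 59 in JAG2KO. Of the macrophage libraries JAG2KO 2 lost most, 1409 of 11975 cells. The shares were then 61.8% to 80.7% in neutrophils, 23.0% to 32.8% in monocytes and 6.90% to 12.6% in macrophages. In CD4 T cells they were 0% to 4.55%, where the 1 library at 0 allows up to 6%. Neutrophils were thus highest although they were the shallowest of these classes, with a median of 1304 to 1924 UMIs per cell.

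Clec4n, which encodes dectin-2, was spread over macrophages, neutrophils, monocytes and cDC2. Macrophages held 339.6, 322 and 299 CPM in Scramble, with 288 and 321 CPM in JAG2KO, and neutrophils 419, 356 and 335 CPM in Scramble, 448 and 397 CPM in JAG2KO. The neutrophils were above the macrophages of the same library in 5 of 5 libraries, but the ranges overlapped (0.79 ± 0.10 on the log2 scale, edgeR adjusted p = 3.54e-07). Monocytes (234, 223 and 202 CPM in Scramble, 293 and 257 CPM in JAG2KO) differed from macrophages by -0.22 ± 0.08 on the log2 scale (edgeR adjusted p = 0.0325). Clec5a, whose product pairs with the adaptor DAP12, stood at 127, 114 and 114 CPM in Scramble macrophages and 94.9 and 93.6 CPM in JAG2KO macrophages. In neutrophils it was at 127, 94.2 and 92.0 CPM in Scramble, 166 and 99.6 CPM in JAG2KO, and in monocytes at 98.0, 108 and 105 CPM in Scramble, 89.2 and 68.8 CPM in JAG2KO, so the 3 classes overlapped. With the library as a block, neutrophils were above macrophages by 0.52 ± 0.12 on the log2 scale (edgeR adjusted p = 0.00141). That fit is TMM-scaled. In CPM the means were 116 in neutrophils and 109 in macrophages, with neutrophils above in 3 of 5 libraries.

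**Figure D2:**
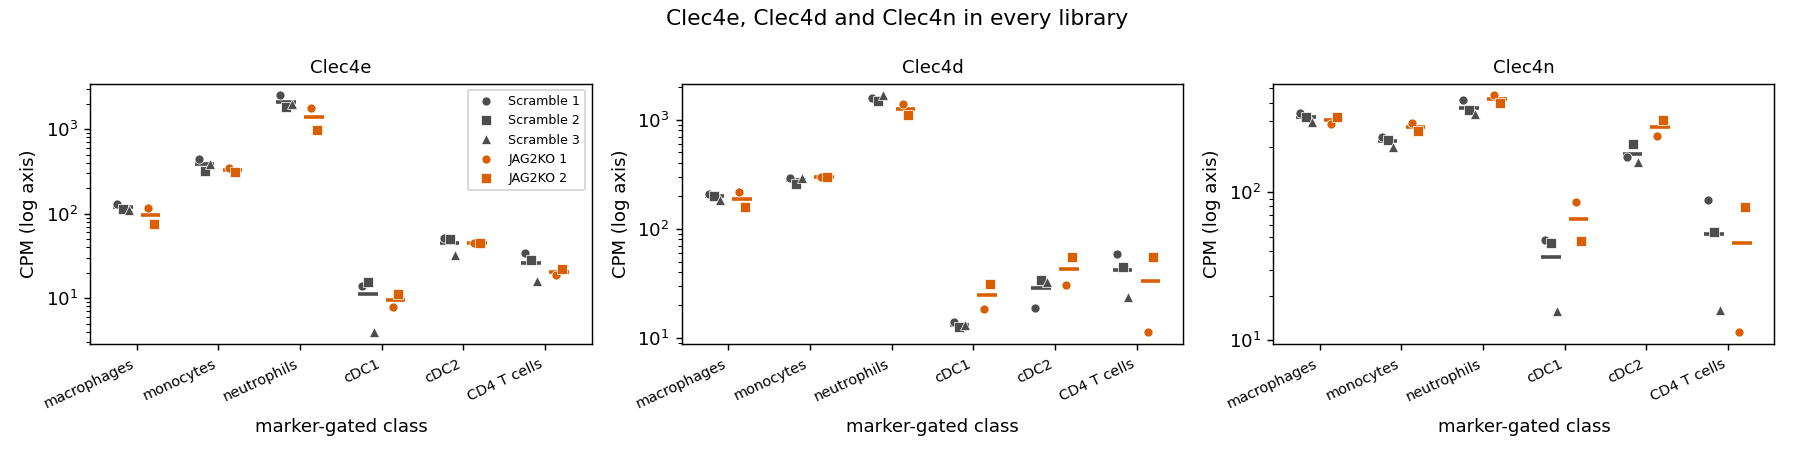
Levels of Clec4e, Clec4d and Clec4n (CPM, log axis) in 6 classes; points are libraries (grey Scramble, orange JAG2KO) and bars are group means. For Clec4e and Clec4d every neutrophil library lies above every library of the other classes shown, and the Clec4n ranges of macrophages and neutrophils overlap.

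The DCIR genes (Clec4a1, Clec4a2 and Clec4a3), which sit in the same row, were highest by mean in monocytes. Macrophages came next for Clec4a1 and Clec4a2, and cDC2 for Clec4a3 (a mean of 124 CPM, against 116 CPM in macrophages). In monocytes Clec4a3 was at 241, 209.7 and 198 CPM in Scramble, with 199 and 185 CPM in JAG2KO, and in macrophages at 111, 113 and 108 CPM in Scramble, 121 and 127 CPM in JAG2KO. The 2 classes did not overlap (1.0 ± 0.08 on the log2 scale, edgeR adjusted p = 4.25e-06). Clec4a1 was at 196, 184 and 180.1 CPM in Scramble, 239 and 171 CPM in JAG2KO in monocytes, and 131, 131 and 120.2 CPM in Scramble, 181 and 134 CPM in JAG2KO in macrophages, a difference of 0.65 ± 0.06 on the log2 scale with monocytes above macrophages in 5 of 5 libraries. Clec4a2, the gene of the inhibitory receptor DCIR, differed least of the DCIR genes: 207, 182 and 172 CPM in Scramble, 210.5 and 180.3 CPM in JAG2KO in monocytes against 184, 178 and 166 CPM in Scramble, 200.4 and 213 CPM in JAG2KO in macrophages. The ranges overlapped, with a log2 difference of 0.19 ± 0.07 (edgeR adjusted p = 0.04). In CPM the means were 191 in monocytes and 188 in macrophages, with monocytes above in 4 of 5 libraries. In cDC2 these genes held 85.2 to 105 CPM (Clec4a1), 82.7 to 164 CPM (Clec4a2) and 104 to 147 CPM (Clec4a3), and in each library these were above the C1q percentage of their macrophage level. In CD4 T cells none of the 3 was above it in every library.

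Clec12a (chr6:129342691-129365303, plus strand), the gene of the inhibitory receptor MICL that binds uric acid crystals, was shared by cDC1, macrophages and monocytes. In cDC1 it was at 131, 157 and 129 CPM in Scramble, with 134 and 126 CPM in JAG2KO, and in macrophages at 111, 117 and 96.9 CPM in Scramble, 174 and 155 CPM in JAG2KO. These 2 classes overlapped. Monocytes held 87.0, 108 and 84.1 CPM in Scramble, 154 and 126 CPM in JAG2KO, cDC2 74.1, 49.9 and 51.6 CPM in Scramble, 104 and 67.9 CPM in JAG2KO, and neutrophils 36.0, 55.9 and 40.3 CPM in Scramble, 92.4 and 114 CPM in JAG2KO. cDC1 were above cDC2 in every library (0.97 ± 0.16 on the log2 scale, edgeR adjusted p = 0.000181). In neutrophils 7 members, Clec12a, Clec4e, Clec4d, Clec4n, Clec5a, Clec4a1 and Clec2d, were above the C1q percentage in all 5 libraries. In plasmacytoid dendritic cells, of which each library had only 11 to 31, Clec12a was at 119 to 219 CPM.

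Over the members tested, 10 of 18 differed between monocytes and macrophages (9 higher in monocytes and 1, Clec4n, lower), where 51.1% of all 12718 genes tested did (25.7% higher and 25.5% lower). Between neutrophils and macrophages 11 of 18 differed, 6 higher in neutrophils and 5 lower, where 51.0% of all genes tested did (22.7% higher and 28.4% lower). Both shares lie near those of all genes, and the second count was 7 when the cells of highest doublet scores were kept.

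Dendritic cell subsets separated the members further. In the comparison of cDC1 with cDC2, 13 of 13 members tested differed, 2 higher in cDC1 (Clec9a and Clec12a) and 11 higher in cDC2, where 31.6% of all 6787 genes tested differed (14.8% higher in cDC1 and 16.8% lower). The median log2 difference was -1.52 over the members and 0.02 over all genes tested. Clec9a (chr6:129408862-129424763, plus strand) was at 150.0, 138 and 156 CPM in Scramble cDC1 and 133 and 134 CPM in JAG2KO cDC1. In cDC2 it was at 1.72, 0 and 5.26 CPM in Scramble, 1.92 and 0 CPM in JAG2KO, and in macrophages at 0.126 to 1.07 CPM, so cDC1 stood apart in every library (6.06 ± 0.28 on the log2 scale against cDC2, edgeR adjusted p = 4.81e-10). Of cDC1 cells 63.5% to 78.0% had a Clec9a UMI (9.62% to 19.6% after thinning to 1000 UMIs), and of CD4 T cells 0% in every library, where a count of 0 allows a share of up to 1.72% to 9.68%, for counting error only. Migratory dendritic cells held 0 to 18.0 CPM of it.

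Clec1b, whose product on platelets binds podoplanin, was found in cDC1 at 28.2, 12.7 and 38.1 CPM in Scramble, with 15.7 and 9.3 CPM in JAG2KO, from 71 UMIs in all. It was at 1.05 to 2.63 CPM in cDC2 and 0.409 to 0.691 CPM in macrophages. Exons of Clec1b (chr6:129397297-129409335) and Clec9a overlap on the same strand, and 4.63% of the 31-base stretches of Clec9a transcripts also occur in those of Clec1b, so counts of this pair in cDC1 cannot be fully told apart. Mast cells and basophils, with 22 to 38 cells per library, had 8 Clec1b UMIs from 3 of the 5 libraries.

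Clec10a (chr11:70156197-70170834, plus strand) was, with Clec4b1, a gene of cDC2: 167, 121 and 204 CPM in Scramble cDC2 and 234 and 153 CPM in JAG2KO cDC2, against 12.4, 21.2 and 22.3 CPM in Scramble, 28.9 and 9.3 CPM in JAG2KO in cDC1. No cDC1 library reached a cDC2 library (-3.17 ± 0.17 on the log2 scale, cDC1 against cDC2, edgeR adjusted p = 1.26e-09). Between 36.1% and 59.1% of cDC2 cells had a Clec10a UMI (9.09% to 19.4% thinned), 9.60% to 20.9% of macrophages (1.36% to 4.05% thinned) and 0% to 3.70% of CD4 T cells (0% to 0.588% thinned); the libraries at 0 allow up to 2.36% to 9.68% of CD4 T cells. Plasmacytoid dendritic cells held 86.0 to 298 CPM. Clec4b1, which encodes the activating receptor DCAR, followed the same classes: 53.4, 80.2 and 68.4 CPM in Scramble, 94.1 and 75.0 CPM in JAG2KO in cDC2 against 4.76, 7.97 and 7.58 CPM in Scramble, 11.9 and 39.7 CPM in JAG2KO in macrophages. Only the macrophages of JAG2KO 2 came near the lowest cDC2 library. Between cDC1 and cDC2 its log2 difference was -3.69 ± 0.30 (edgeR adjusted p = 1.12e-07). Clec4g had 25 UMIs in cDC2, at 2.83 to 11.8 CPM.

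The Clec2 genes on chromosome 6 include genes of ligands of NK receptors of the Klrb1 family, while Clec2f is annotated as a pseudogene. Clec2d and Clec2i were highest in migratory dendritic cells and NK cells. Clec2d, the ligand Clr-b, was at 286, 217 and 197 CPM in migratory dendritic cells of Scramble tumours and 224 and 259 CPM in those of JAG2KO tumours. It was also present in CD4 T cells (190.0, 110.0 and 135 CPM in Scramble, 147 and 149 CPM in JAG2KO) and NK cells (129, 132 and 105 CPM in Scramble, 129 and 85.0 CPM in JAG2KO). Macrophages of the same library were lower in each case (28.2, 35.9 and 35.7 CPM in Scramble, 45.7 and 51.2 CPM in JAG2KO). CD4 T cells held 292% to 675% of the macrophage level and NK cells 166% to 457%. Neutrophils held 76.4, 109.9 and 154 CPM in Scramble, with 157 and 113 CPM in JAG2KO. Clec2d was the one member of the 15 that stood above the C1q percentage in CD4 T cells in all 5 libraries. Clec2i was at 91.3, 68.8 and 90.0 CPM in Scramble NK cells and 80.3 and 53.1 CPM in JAG2KO NK cells, and at 64.5, 57.4 and 40.5 CPM in Scramble, 44.9 and 52.8 CPM in JAG2KO in migratory dendritic cells. NK cells were higher in 5 of 5 libraries, though the ranges overlapped. In macrophages it was at 2.0 to 2.96 CPM. Clec2g had 407 UMIs and peaked in monocytes at 0.902 to 3.26 CPM, and it shares 7.88% of its 31-base stretches with Clec2i.

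Among the 10 classes with 20 or more cells in every library, Clec1a and Clec3b were highest in the gate of fibroblasts or tumour cells, which had passed the CD45 sort. Clec1a (chr6:129424772-129452000, minus strand), known from endothelium, was at 34.6, 49.0 and 58.5 CPM in the fibroblast or tumour cell gate of Scramble tumours and 112 and 102 CPM in that of JAG2KO tumours. Both JAG2KO libraries were above the 3 Scramble libraries there, and this class was not tested by genotype. In endothelial cells of JAG2KO 2, the one library with more than 8 such cells, it was at 132 CPM from 50 UMIs. Clec14a, an endothelial gene with 32 UMIs in all, was at 15.8 CPM in those 92 cells, from 6 UMIs. Clec3b, which encodes the plasminogen-binding protein tetranectin, was at 0.865, 4.0 and 0.702 CPM in Scramble, 23.0 and 5.86 CPM in JAG2KO in the fibroblast or tumour cell gate, with JAG2KO 1 highest. Clec16a, which takes part in autophagy of mitochondria and is no surface receptor, was low in every class, at 3.46 to 4.65 CPM in macrophages from 1633 UMIs in all cells. Clec11a, which encodes a secreted growth factor, had 200 UMIs and stayed below 10 CPM in every class by mean.

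The study's comparison is JAG2KO against Scramble. In macrophages 18 members passed the filter on low counts and 3 rose in JAG2KO tumours (Clec10a, Clec12a and Clec1a), where 1.48% of all 14089 genes tested changed in either direction and 0.696% rose. No member fell. The median log2 fold change was 0.31 over the 18 members and 0.00 over all genes tested, and 14 of the 18 members had a positive value. An unadjusted edgeR p of at most 0.05 was found for 8 of the 18 members, beside 2376 of all 14089 genes tested. Since the labels do not name separate animals, these p-values measure the spread between libraries only.

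Clec10a stood in macrophages at 13.5, 13.1 and 15.2 CPM in the Scramble libraries, with 46.8 and 25.5 CPM in JAG2KO. Both JAG2KO libraries were above the 3 Scramble libraries, which lay close together, and JAG2KO 1 was well above JAG2KO 2 (log2 fold change 1.35 ± 0.22, SE, edgeR adjusted p = 0.0443). Clec12a was at 111, 117 and 96.9 CPM in Scramble macrophages and 174 and 155 CPM in JAG2KO macrophages. The groups did not overlap and the 2 JAG2KO libraries lay near each other (0.59 ± 0.10, edgeR adjusted p = 0.0462). Clec1a was low throughout, at 1.54, 1.59 and 1.14 CPM in Scramble, with 3.19 and 4.58 CPM in JAG2KO, from 762 UMIs (1.43 ± 0.24, edgeR adjusted p = 0.0462).

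These macrophage calls were narrow. Without Scramble 1, Scramble 2 or Scramble 3 no member passed, at fold changes of 1.30 to 1.43 for Clec10a, 0.52 to 0.65 for Clec12a and 1.30 to 1.52 for Clec1a on the log2 scale. Without JAG2KO 2 only Clec10a passed (1.70 on the log2 scale), and without JAG2KO 1 Clec12a was lost (0.54, edgeR adjusted p = 0.0962) while Clec10a passed at 0.89. Markers of other classes were measured in the same macrophage sums. The summed cDC2 markers were at 498, 531 and 593 CPM in Scramble, with 569 and 669 CPM in JAG2KO. The summed fibroblast markers were at 105, 80.7 and 37.1 CPM in Scramble, 29.0 and 99.5 CPM in JAG2KO, and the endothelial markers at 6.08, 6.48 and 6.16 CPM in Scramble, 4.3 and 6.2 CPM in JAG2KO. None of the 10, 8 and 8 markers of these lists was at 0 in macrophages. Of 20 marker lists, 7 had both JAG2KO libraries above the Scramble range in macrophages and 2 had both below it. Non-classical monocyte markers were at 277, 289 and 316 CPM in Scramble, 492 and 398 CPM in JAG2KO, T cell markers at 3.64, 7.53 and 4.11 CPM in Scramble, 12.8 and 32.9 CPM in JAG2KO, and NK cell markers at 3.2, 4.53 and 4.2 CPM in Scramble, 9.15 and 12.5 CPM in JAG2KO. The macrophage markers were at 22359, 23485 and 20590.0 CPM in Scramble, 19849 and 17422 CPM in JAG2KO, lower in both JAG2KO libraries. The part of these lists in the results was not tested.

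The other 15 members tested did not pass in macrophages by edgeR with the low-count filter and no replicate block. The replicate block called Clec2d and Clec4b1 as well, as did the fit with no filter, and DESeq2 also called Clec2d and Clec5a. Clec4b1 was at 4.76, 7.97 and 7.58 CPM in Scramble, with 11.9 and 39.7 CPM in JAG2KO, with JAG2KO 2 far above JAG2KO 1, the reverse of Clec10a (1.93 ± 0.48, edgeR adjusted p = 0.109). Clec2d (log2 fold change 0.53 ± 0.13, adjusted p = 0.111 by edgeR) and Clec5a (-0.34 ± 0.08, 0.109) each had both JAG2KO libraries outside the Scramble range, higher for Clec2d and lower for Clec5a. Clec4n (-0.08 ± 0.10), Clec4d (-0.09 ± 0.12) and Clec4e (-0.32 ± 0.17) had adjusted p-values of 0.779, 0.788 and 0.417 by edgeR.

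**Figure D3:**
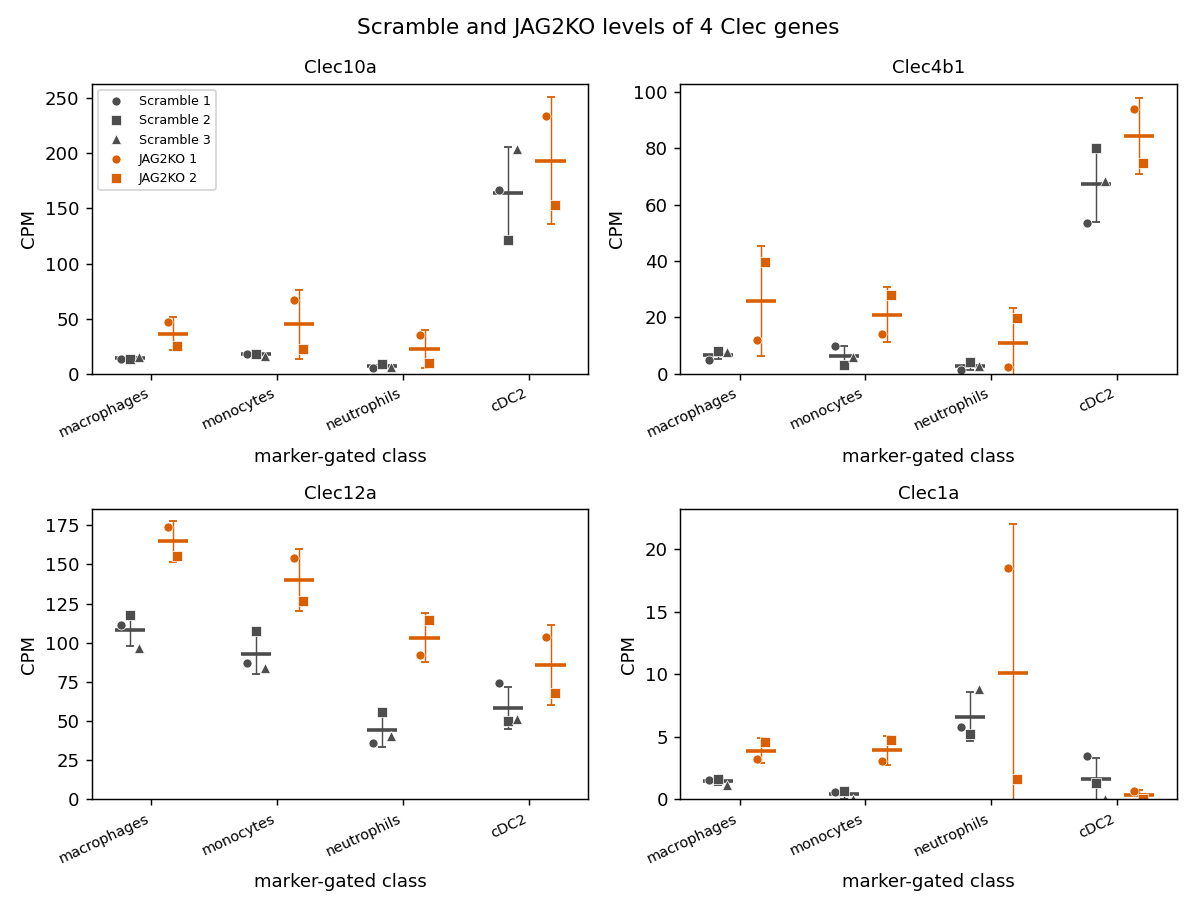
Levels (CPM) of Clec10a, Clec4b1, Clec12a and Clec1a in 4 classes; points are libraries, thick bars group means and thin bars 1 SD (n = 3 Scramble, n = 2 JAG2KO). Clec12a is higher in both JAG2KO libraries in macrophages, monocytes and neutrophils, and in macrophages Clec10a is highest in JAG2KO 1 and Clec4b1 in JAG2KO 2.

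In monocytes 15 members were tested and 1, Clec10a, rose, where 1.30% of all 10407 genes tested changed and 0.577% rose. It was at 18.2, 17.6 and 16.3 CPM in the Scramble libraries, with 67.1 and 22.5 CPM in JAG2KO. JAG2KO 2 lay just above the Scramble range and JAG2KO 1 far above it (1.42 ± 0.28 on the log2 scale, edgeR adjusted p = 0.0233). Without JAG2KO 1 the log2 fold change was 0.34 (edgeR adjusted p = 0.785), and the call was also lost without Scramble 1 (1.48, adjusted p = 0.0594) and without Scramble 3 (1.38, adjusted p = 0.147). It was lost too with the replicate block (1.18, edgeR adjusted p = 0.0557), with sums thinned to the smallest library (1.07, edgeR adjusted p = 0.0723) and with DESeq2 (1.31, adjusted p = 0.456). The summed cDC2 markers in monocytes were 407, 447 and 487 CPM in Scramble, with 515 and 563 CPM in JAG2KO, higher in both JAG2KO libraries. Migratory dendritic cell markers were at 11.4, 12.4 and 12.6 CPM in Scramble, 33.2 and 42.7 CPM in JAG2KO, also higher, and neutrophil markers at 246, 297 and 286 CPM in Scramble, 118 and 177 CPM in JAG2KO, and monocyte markers at 6332, 5791 and 6278 CPM in Scramble, 4524 and 5249.6 CPM in JAG2KO, both lower. In all, 7 of 20 lists lay above the Scramble range in both JAG2KO libraries and 3 below it, and their part in the result was not tested. Clec12a stood at 87.0, 108 and 84.1 CPM in Scramble monocytes and 154 and 126 CPM in JAG2KO monocytes, both above the Scramble range, and missed the threshold (0.54 ± 0.14, edgeR adjusted p = 0.0946). Clec4b1 (1.58 ± 0.39, adjusted p = 0.0692 by edgeR) and Clec1a (2.99 ± 0.74, 0.0646, from 27 UMIs) missed it too.

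In neutrophils 11 members were tested and 1, Clec12a, rose, where 0.736% of all 8011 genes tested changed and 0.325% rose. It was at 36.0, 55.9 and 40.3 CPM in Scramble, with 92.4 and 114 CPM in JAG2KO, with both JAG2KO libraries above the Scramble range (1.09 ± 0.24 on the log2 scale, edgeR adjusted p = 0.0448). The call was lost without Scramble 1 (0.99, adjusted p = 0.122), Scramble 3 (1.05, adjusted p = 0.21) or JAG2KO 2 (0.92, adjusted p = 0.279 by edgeR). With the cells of highest doublet scores kept, Clec12a was at 0.77 (edgeR adjusted p = 0.102) and Clec4b1 was called in its place. Summed macrophage markers in the same cells were at 6484, 7925 and 5559.8 CPM in Scramble, with 7401 and 11000.2 CPM in JAG2KO, JAG2KO 2 being highest and JAG2KO 1 within the Scramble range. The cDC1 markers were at 212, 232 and 192 CPM in Scramble, 296 and 380.3 CPM in JAG2KO, the cDC2 markers at 287, 307 and 340.4 CPM in Scramble, 388 and 419.5 CPM in JAG2KO, and the T cell markers at 13.7, 29.4 and 14.5 CPM in Scramble, 43.9 and 47.3 CPM in JAG2KO, each higher in both JAG2KO libraries. In all, 7 of 20 lists lay above the Scramble range in both and 3 below it, and their part in the result was not tested. C1q in neutrophils was at 3283, 3689 and 2644 CPM in Scramble, with 3527 and 5956 CPM in JAG2KO. Clec12a there was at 32.5% to 73.5% of its macrophage level, beside 26.8% to 61.8% for C1q. The macrophage level of Clec12a was itself higher in both JAG2KO libraries, and the part of free macrophage RNA was not tested. Clec4e (-0.74 ± 0.27, adjusted p = 0.245) and Clec4d (-0.48 ± 0.21, adjusted p = 0.352 by edgeR) did not pass. Both JAG2KO libraries were below the 3 Scramble libraries for each of them, and JAG2KO 2 was the lowest. S100a8 and S100a9, neutrophil genes that are in the neutrophil gate, together were at 81355, 62565 and 66963 CPM in the Scramble neutrophils and 49332 and 59893 CPM in the JAG2KO neutrophils, also lower in both, and their part was not tested.

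**Figure D4:**
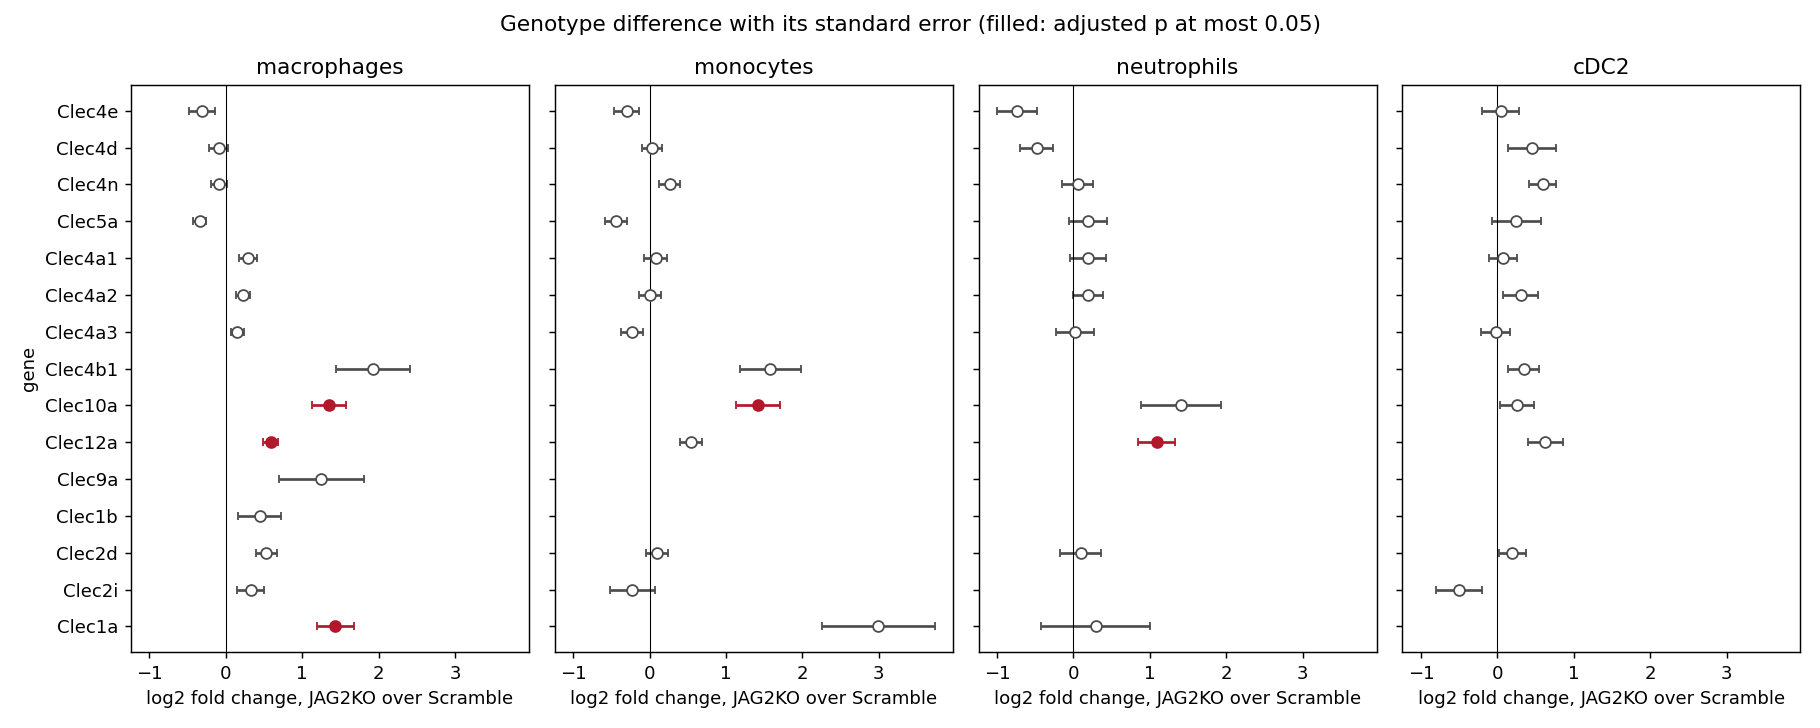
Log2 fold change of JAG2KO over Scramble with its standard error for the Clec genes tested in macrophages, monocytes, neutrophils and cDC2; filled red points passed an edgeR adjusted p of 0.05. Clec10a and Clec12a lie to the right of 0 in all 4 classes, and Clec10a passed in macrophages and monocytes and Clec12a in macrophages and neutrophils.

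In the other classes no member passed by edgeR: 0 of 11 in cDC1 (3 at an unadjusted p of at most 0.05, 1.02% of all genes called), 0 of 12 in cDC2 (2, 0.0978%), 0 of 9 in migratory dendritic cells (1, 0.0388%), 0 of 8 in CD4 T cells (0, 0.00%) and 0 of 5 in NK cells (0, 0.00%). DESeq2 called 0 in each of these as well. An unadjusted edgeR p of at most 0.05 was found for 599 of all 7083 genes tested in cDC1 and 582 of 7154 in cDC2. The counts were 163 of 5159 in migratory dendritic cells, 216 of 5763 in CD4 T cells and 149 of 4794 in NK cells. In cDC2 Clec4n was at 172, 212 and 160.0 CPM in Scramble, with 239 and 308 CPM in JAG2KO, with no overlap (0.59 ± 0.18, edgeR adjusted p = 0.303). Clec12a (0.63 ± 0.23, edgeR adjusted p = 0.469) and Clec10a (0.26 ± 0.22, 0.829) overlapped between groups there. In cDC1, Clec9a (-0.17 ± 0.19, edgeR adjusted p = 0.908) and Clec12a (-0.11 ± 0.19, 0.945) had the smallest standard errors, and Clec2i in NK cells had a log2 fold change of -0.32 ± 0.31 (adjusted p = 1). The dendritic classes held 43 to 159 cells per library.

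Whether the genotype difference was unequal between classes was tested in its own fits, with the library as a block. Between macrophages and cDC2 it was unequal for 3 of 21 members, where 1.77% of all 13493 genes tested were called (1.13% with the larger value in macrophages and 0.645% with the smaller): Clec10a (by 1.08 ± 0.18 on the log2 scale, edgeR adjusted p = 2.37e-07) and Clec4b1 (1.18 ± 0.22, adjusted p = 1.21e-05) had the larger fold change in macrophages, and Clec4n (-0.68 ± 0.15, adjusted p = 0.000951) the larger one in cDC2. For Clec4b1 this rested on JAG2KO 2, since without it the difference was 0.27 (edgeR adjusted p = 0.943). Clec10a and Clec4n passed without any 1 of the 5 libraries. Between macrophages and monocytes 1 of 18 members passed, Clec2d (0.42 ± 0.11, edgeR adjusted p = 0.0479), where 2.96% of all 13629 genes tested did and 2.15% in its direction. That call was lost without Scramble 1 (0.41, adjusted p = 0.124), Scramble 3 (0.43, adjusted p = 0.111), JAG2KO 1 (0.54, adjusted p = 0.109) or JAG2KO 2 (0.32, adjusted p = 0.337).

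Macrophages were also split by single genes, comparing cells with at least 3 UMIs of a gene (or of a pair of genes) with cells without any. Such cells differ in depth: those with Spp1 had a median of 6657.5 to 11300.5 UMIs and those without 2630 to 8541. Clec10a was higher in cells with Retnla, a gene of alternative activation, in 5 of 5 libraries, at 117, 216 and 74.3 CPM in Scramble, with 407 and 85.2 CPM in JAG2KO. Without Retnla it was at 12.6, 12.3 and 13.9 CPM in Scramble, 31.2 and 22.3 CPM in JAG2KO. Clec4a1, Clec4b1 and Clec2d were also higher with Retnla in 5 of 5 libraries. Cells with Retnla numbered 12, 22 and 46 in Scramble tumours but 225 and 353 in JAG2KO tumours, and in the cells without Retnla both JAG2KO libraries still lay above the Scramble libraries for Clec10a. In cells with Spp1, which encodes osteopontin, Clec10a was at 10.8, 10.9 and 13.1 CPM in Scramble, with 27.9 and 19.7 CPM in JAG2KO, again without overlap, and it was higher in cells without Spp1 in every library (48.8, 27.4 and 35.6 CPM in Scramble, 82.1 and 32.4 CPM in JAG2KO).

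Clec12a was higher in macrophages with Cxcl9, an interferon-induced chemokine gene, in 5 of 5 libraries: 200.4, 218 and 156 CPM in Scramble, with 256 and 208 CPM in JAG2KO, against 109, 111 and 94.4 CPM in Scramble, 163 and 147 CPM in JAG2KO, without it. This was not particular to Clec12a: Clec4a1, Clec4a3, Clec4b1, Clec4n, Clec2d, Clec1b and Clec9a were also higher with Cxcl9 in 5 of 5 libraries. For Clec12a, both JAG2KO libraries were above all Scramble libraries in 10 of the 12 subsets (6 splits, each with 2 sides), the exceptions being cells with Cxcl9 and cells with Retnla. For Clec10a this held in 9 of 12 and for Clec1a in 12 of 12. It also held in 9 for Clec4a2 and in 8 for Clec4b1 and Clec2d, none of them called in macrophages by the main edgeR fit. The 12 subsets are cuts of the same 5 libraries and no separate replicates, and these counts were not taken over all genes.

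Clec4e was higher in cells without Folr2 and Lyve1, genes of resident macrophages, in 5 of 5 libraries, at 265, 200.3 and 200.4 CPM in Scramble, with 195 and 93.4 CPM in JAG2KO against 86.3, 78.5 and 76.0 CPM in Scramble, 88.5 and 54.9 CPM in JAG2KO in cells with them. Its contrast was smallest in JAG2KO 2. Clec4a3, Clec4b1, Clec4a2, Clec2i, Clec2d and Clec12a were also lower with Folr2 and Lyve1 in 5 of 5 libraries. Clec4e was lower with Fcrls and Ccl12 in 5 of 5 libraries too. Its means were 82.8 CPM with and 240 CPM without them in Scramble, 73.0 and 124 CPM in JAG2KO. Clec4d was higher in cells with the arginase gene Arg1 in 5 of 5 libraries (235, 231 and 199 CPM in Scramble, 270.5 and 189.9 CPM in JAG2KO with it, 123, 109 and 127 CPM in Scramble, 131 and 91.5 CPM in JAG2KO, without). Clec4n was also higher in Arg1 cells in 5 of 5 libraries. Clec4a3, Clec4a1, Clec4a2, Clec4b1, Clec10a, Clec2d, Clec12a, Clec2i and Clec9a were lower in Arg1 cells in 5 of 5 libraries. These splits are descriptions without a test.

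**Figure D5:**
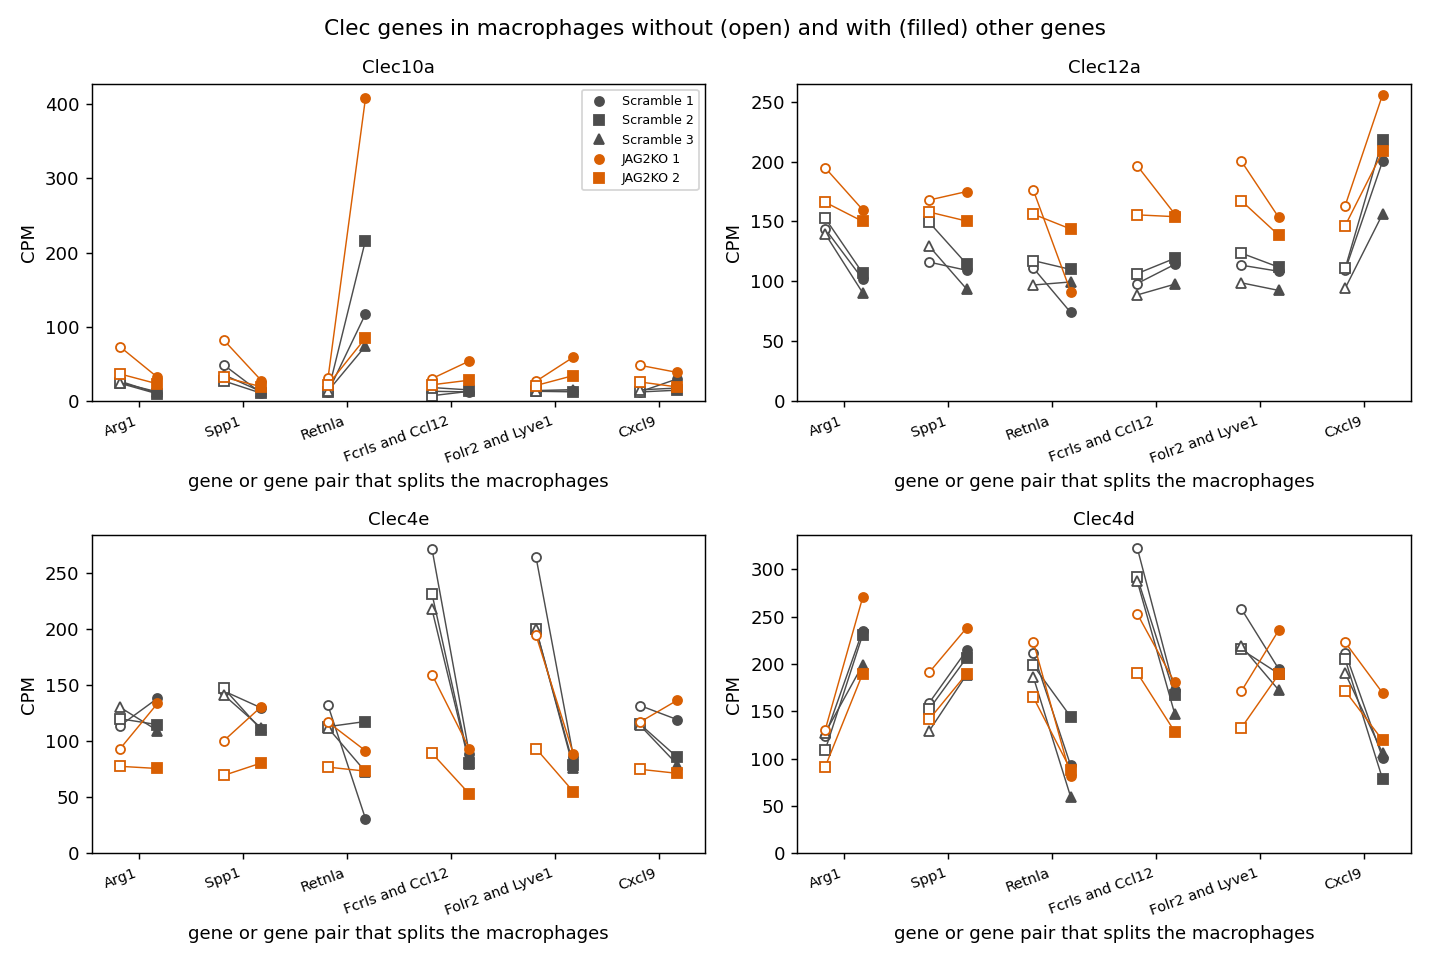
Clec10a, Clec12a, Clec4e and Clec4d (CPM) in macrophages without (open) and with (filled) at least 3 UMIs of the gene or gene pair on the x axis; lines join the 2 sides within a library (grey Scramble, orange JAG2KO). Clec10a is highest with Retnla, Clec12a with Cxcl9, Clec4e is lower with Folr2 and Lyve1 and Clec4d is higher with Arg1.

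Other genes with a C-type lectin domain (a list of 24) were read beside the Clec genes. In macrophages 2 of 24 tested rose and none fell, Cd207 (log2 fold change 2.18 ± 0.24, edgeR adjusted p = 0.0213), the gene of langerin, and Cd209d (2.10 ± 0.34, adjusted p = 0.0443), a relative of the human gene of DC-SIGN, with a median of 0.93 over the list against 0.00 over all genes tested, of which 0.696% rose. In monocytes 2 of 15 rose, Cd209a, a marker in the cDC2 gate (1.89 ± 0.23, edgeR adjusted p = 0.00119) and Mgl2 (1.81 ± 0.25, adjusted p = 0.0034), the latter a paralog of Clec10a, where 0.577% of all genes tested rose. Mgl2 also rose in neutrophils (2.71 ± 0.46, edgeR adjusted p = 0.00944, 1 of 8 where 0.325% of all genes rose) and in cDC1 (2.10 ± 0.25, adjusted p = 7.94e-05), where Mrc1, the mannose receptor gene and a marker in the macrophage gate, rose as well (0.80 ± 0.19, adjusted p = 0.0451, 2 of 9 where 1.02% of all genes changed). No gene of the list passed in cDC2, migratory dendritic cells, CD4 T cells or NK cells by edgeR.

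The signalling chain downstream (21 genes, among them Syk, Card9, Fcer1g, Tyrobp and Ptpn6) hardly passed. None of its 21 genes tested in macrophages or monocytes and none of the 20 in neutrophils passed (8, 6 and 1 at an unadjusted p of at most 0.05 by edgeR), with medians of 0.00, -0.02 and -0.02. Over all genes tested in these classes, 2376 of 14089, 1158 of 10407 and 1060 of 8011 had such an unadjusted p. Malt1, a protease subunit of the Card9 complex, rose in cDC1 (1.19 ± 0.23, edgeR adjusted p = 0.00804). Pdpn, which encodes the ligand of the Clec1b product, had a log2 fold change of -0.07 ± 0.14 in macrophages (edgeR adjusted p = 0.858) and 0.59 ± 0.18 in monocytes (adjusted p = 0.154).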

How the data were processed

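The deposited values are whole-number UMI counts per gene and cell barcode; the authors made them with cellranger 6.0.0, per the file headers. Seurat, GRCm38 and mm10 are named in the submitters' processing notes. The authors had removed barcodes without cells, per the labels. Kept cells had at least 500 UMIs, 250 genes and at most 10% mitochondrial UMIs, and the 8% of highest scanpy 1.11.5 doublet scores in each library were removed. Cells were classed by marker lists, with thresholds set after the marker counts were seen. The Clec members and the lists were chosen with earlier results of these data known.

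Counts were summed per class and library (at least 20 cells). Levels in CPM were not TMM-scaled, so a ratio of levels need not equal a fitted fold change. JAG2KO was tested against Scramble with the quasi-likelihood test of edgeR 4.0.16 (TMM scaling, filterByExpr, Benjamini-Hochberg adjustment over all genes tested, threshold 0.05); class contrasts and interactions took the library as a block. DESeq2 1.42.0, other filters, gates and sums and leaving out each library were the alternatives. Members with a mean of at least 10 CPM in a class, or called by genotype, are given in full. On simulated macrophage counts (14089 genes) the test recovered 34 of 100 genes changed 1.5-fold and 72 of 100 changed 2-fold. It also called 11 of 13725 unchanged genes. Total UMIs per library bound the precision, and levels cover counting error only through their spread over libraries.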

Additional observations from a re-analysis of the deposited data

Results flagged for a closer look

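In 4 cases the JAG2KO difference of a Clec gene was unequal between classes by the interaction test of edgeR. Between macrophages and cDC2 the log2 fold change of Clec10a was larger in macrophages by 1.08 (adjusted p = 2.37e-07) and that of Clec4b1 by 1.18 (adjusted p = 1.21e-05), while that of Clec4n differed by -0.68 (adjusted p = 0.000951), being larger in cDC2. Between macrophages and monocytes the log2 fold change of Clec2d was larger in macrophages by 0.42 (edgeR adjusted p = 0.0479). Over the alternatives the adjusted p ranged from 4.33e-08 to 0.00194 for Clec10a, 5.22e-15 to 0.943 for Clec4b1, 8.37e-06 to 0.0445 for Clec4n and 0.0115 to 0.60 for Clec2d.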

How the results depend on the processing

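No Clec fold change called in the main genotype or interaction fits turned its sign in an alternative. Those not called were not checked for this. The 3 calls in macrophages became 5 with DESeq2, 5 with no filter on low counts and 1 at a limit of 5% mitochondrial UMIs. They became 2, without Clec1a, with the highest doublet scores kept and also with 1 more marker asked. When 1 Scramble library was left out they became 0. The 1 call in monocytes became 4 with no filter, 2 at the 5% limit, 2 with doublets kept and 0 with thinned sums, and 0 to 1 without 1 library; DESeq2 called Clec4b1 there and not Clec10a. The 1 call in neutrophils became 0 with DESeq2, 2 with no filter, 0 at 1000 UMIs and 500 genes, 0 with thinned sums and 0 with 1 more marker asked, and 0 to 2 without 1 library; with doublets kept the 1 call was Clec4b1 and not Clec12a. The 11 calls of neutrophils against macrophages became 7 with doublets kept. The 1 unequal effect between macrophages and monocytes became 0 with DESeq2, 3 with no filter, 0 at 1000 UMIs and 500 genes, 0 at the 5% limit, 3 with thinned sums and 2 with 1 more marker asked, and 0 to 2 without 1 library. For Clec4b1 between macrophages and cDC2, DESeq2 gave an adjusted p of 0.444. The cause of these moves was not tested.

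Whether equal replicate numbers pair the libraries could not be told. Deviations from the group means correlated at 0.0216 between Scramble 1 and JAG2KO 1 and at 0.238 between Scramble 2 and JAG2KO 2 (13002 genes). The deviations of the 2 JAG2KO libraries mirror each other, so Scramble 2 and JAG2KO 1 gave -0.238. Such values cannot tell pairing from its absence. With the replicate block, 5 members were called in macrophages, 0 in monocytes and 1 in neutrophils.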
